A study of Homo sapiens and Mus musculus with 12 samples.

Results

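Interferons and the cytokines of the interleukin-6 (IL-6) family are read by NK cells through pairs of receptor chains. Interferon gamma binds IFNGR1 and signals only when IFNGR2 joins the complex, and type I interferons need both IFNAR1 and IFNAR2. IL6ST, also called gp130, is the signalling chain shared by the receptors of IL-6, IL-11, IL-27, leukaemia inhibitory factor (LIF) and oncostatin M. None of these chains is an enzyme. JAK1, JAK2 and TYK2 sit on their inner ends and phosphorylate STAT factors such as STAT2 and STAT3, which then act as transcription factors. NK cells are themselves a major source of interferon gamma.

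The genes of these 5 chains were looked up by symbol in the mouse and the human count table. This gave 9 rows of 40325, namely Ifngr1, Ifngr2, Ifnar1, Ifnar2 and Il6st among 22021 mouse rows and IFNGR1, IFNAR1, IFNAR2 and IL6ST among 18304 human rows. Human IFNGR2 was not analysed here. All 9 passed the filter on low counts, which left 13189 mouse and 12727 human genes to be tested.

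The mouse libraries were polyA RNA of CD3−NK1.1+ NK cells sorted from the spleens of adult, age- and sex-matched C57BL/6J mice. WT mice were Ehmt2flox/flox, and KO mice were Ehmt2flox/flox; Ncr1iCre, in which Cre is driven by Ncr1, the gene of the NK receptor NKp46. Ncr1 is also active in other innate lymphoid cells, and both groups carried the floxed alleles. The sample titles of the KO group name EHMT2, whereas its genotype label reads Ezh2-KO. The human libraries came from NK92MI, a single NK cell line engineered to produce IL-2 itself. It was treated with BIX-01294 (BIX), an inhibitor of EHMT2, or with its solvent DMSO, and the labels give neither dose nor time. EHMT2 (G9a) writes H3K9me2, a histone mark of repressed chromatin. Each group held 3 libraries. Nothing in the labels says that they came from separate animals or cultures, so p-values measure the spread between these libraries, which may be technical.

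Levels are given as CPM, counts scaled to the library total after TMM normalization. Ehmt2, the targeted gene, was at 282 ± 5.94 CPM in WT and 150 ± 18.1 CPM in KO libraries, and Ezh2 at 44.03 ± 2.15 and 37.6 ± 2.35 CPM (SD, n = 3 each). These are RNA counts over the whole gene. By Western blot, the authors report complete loss of Ehmt2 and less H3K9me2 in splenic NK cells of KO mice. Total counts lay between 25891680 and 37438868 in mouse, lowest in WT replicate 2, and between 16579469 and 17165446 in human. Of 69 marker genes of B cells, macrophages, neutrophils, dendritic cells, erythroid cells, platelets, T cells and stromal cells, 64 of the 67 tested had a lower level in KO libraries. Of these markers 22 were called lower and 1, a T cell marker, higher, beside 7.43% of all mouse genes called lower and 4.44% higher. Their summed level was 7861 to 15232 CPM in WT and 4972 to 6808 CPM in KO libraries, and no marker was at 0 in all of them. The dendritic cell markers overlapped, with 1061 to 1389 CPM in WT and 1121 to 1384 CPM in KO libraries. The macrophage and monocyte markers took the widest range, from 3335 to 10424 CPM in WT and from 1669 to 3090 CPM in KO libraries. All 12 pan-NK genes were higher in KO libraries, 7 of them called, with sums of 5614 to 9534 CPM in WT and 10751 to 12541 CPM in KO. WT replicate 2 was the WT library with the lowest sum for the markers of other cell types and the highest pan-NK sum. In these bulk samples, fewer cells of a type, less RNA per cell and lower levels of the markers in NK cells themselves cannot be told apart. In NK92MI, the 25 listed markers of other cells summed to 950 to 1006 CPM with DMSO and 926 to 996 CPM with BIX, and the pan-NK genes to 4568 to 4894 and 5812 to 7231 CPM. The T cell markers alone gave 589 to 610 CPM with DMSO. As NK92MI is a single NK cell line, genes of these marker lists can be counted in NK cells too. Of the 10 pan-NK genes tested there, 4 were called higher and 4 lower, beside 18.4% of all human genes in each direction.

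The first comparison asked whether loss of Ehmt2 in NK cells altered the receptor chains. In KO NK cells, 1 of the 5 genes was called, and it was lower. Il6st fell to 0.604 times its WT level. The ligand-binding chain Ifngr1 and both type I chains overlapped between the groups and were not called, and the accessory chain Ifngr2 had a lower mean that missed the threshold. Genes were called by edgeR's quasi-likelihood test where the Benjamini-Hochberg adjusted p was under 0.05. It called 11.9% of all mouse genes, 4.44% higher and 7.43% lower.

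**Figure D1:**
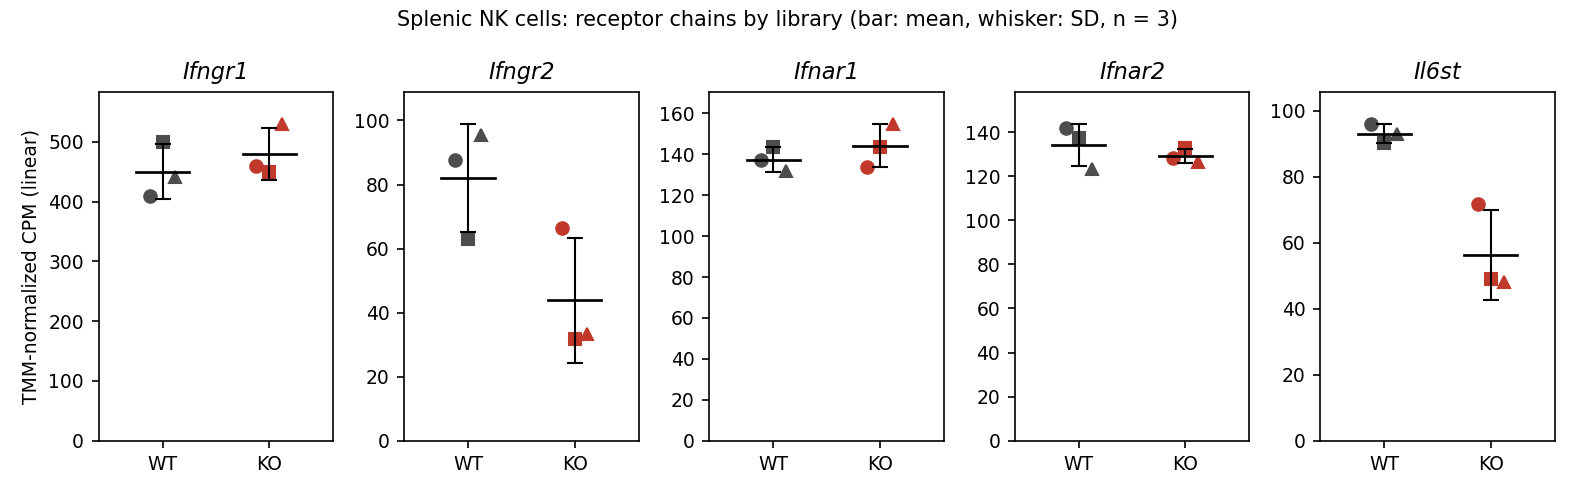
TMM-normalized CPM of the 5 mouse genes (vertical axes, linear, from 0) in WT and KO splenic NK libraries. Circles, squares and triangles are replicates 1, 2 and 3, bars are means and whiskers are SD. Il6st separates the groups, with WT libraries at 90.3 CPM or more and KO libraries at 71.8 CPM or less, whereas the other 4 genes overlap.

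Ifngr1, on chromosome 10 of GRCm38 (chr10:19591949-19610229, plus strand), codes for the chain that binds interferon gamma. It was counted at 409, 500 and 442 CPM in WT replicates 1 to 3 and at 460, 450 and 530 CPM in KO replicates 1 to 3. The groups overlapped, and the log2 fold change was 0.09 (95% interval −0.17 to 0.35, adjusted p = 0.574 by edgeR). Under TMM normalization, this interval leaves room for only modest differences in either direction. Ifngr2 (chr16:91547072-91565623, plus strand) codes for the chain that completes the interferon gamma receptor. Its levels were 87.5, 63.0 and 95.6 CPM in WT and 66.3, 31.6 and 33.4 CPM in KO libraries. KO replicate 1 lay above WT replicate 2, so the groups overlapped. The log2 fold change was −0.91 (SE 0.30, 95% interval −1.59 to −0.22, adjusted p = 0.0760 by edgeR). DESeq2, which called 23.4% of all mouse genes at the same threshold, called Ifngr2 (adjusted p = 0.00643). By edgeR it also passed without KO replicate 1 (log2 fold change −1.34, adjusted p = 0.0193) and without WT replicate 2 (−1.06, adjusted p = 0.0352), but not without KO replicate 2 (−0.72, adjusted p = 0.220), KO replicate 3 (−0.74, adjusted p = 0.227), WT replicate 1 (−0.86, adjusted p = 0.177) or WT replicate 3 (−0.79, adjusted p = 0.208).

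The proportion of the 2 chains of the interferon gamma receptor was compared within each library. Per kb of exon, the level of Ifngr1 was 6.18, 10.5 and 6.11 times that of Ifngr2 in WT and 9.18, 18.8 and 20.98 times in KO libraries. KO replicate 1 lay below WT replicate 2 here too. The mean ratio was 7.60 ± 2.52 in WT and 16.3 ± 6.29 in KO (SD, n = 3 each), and the groups did not separate by a two-sided exact permutation test on the log2 ratio (p = 0.2, where 0.1 is the smallest that 3 against 3 allow).

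Ifnar1 (chr16:91485238-91507441, plus strand) and Ifnar2 (chr16:91372783-91405589, plus strand) code for the type I interferon receptor. Ifnar1 was at 137, 144 and 132 CPM in WT and 134, 143 and 155 CPM in KO libraries. Ifnar2 was at 142, 138 and 123 CPM in WT and 128, 133 and 126 CPM in KO libraries. Neither gene separated the groups. The log2 fold changes were 0.07 for Ifnar1 (95% interval −0.13 to 0.26, adjusted p = 0.581 by edgeR) and −0.05 for Ifnar2 (95% interval −0.24 to 0.13, adjusted p = 0.649 by edgeR). With each library left out in turn they stayed between 0.01 and 0.11 for Ifnar1 and between −0.12 and −0.01 for Ifnar2. Of the exon bases of Ifnar2, 9.46% are shared with the annotated gene Gm21970, which had no counts.

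Il6st (chr13:112464070-112510086, plus strand) was counted at 96.0, 90.3 and 92.8 CPM in WT replicates 1 to 3 and at 71.8, 48.8 and 48.0 CPM in KO replicates 1 to 3. All KO libraries lay below all WT libraries, as for 19.3% of the mouse genes tested. KO replicate 1 was again the KO library nearest to WT. The mean was 93.0 ± 2.90 CPM in WT and 56.2 ± 13.5 CPM in KO (SD, n = 3 each), with a log2 fold change of −0.73 (SE 0.16, adjusted p = 0.0387 by edgeR, 0.000335 by DESeq2). Leaving out 1 library at a time kept the log2 fold change between −0.95 and −0.62. The adjusted p by edgeR was 0.0166 without KO replicate 1 and 0.0213 without WT replicate 2, but 0.1501 without KO replicate 2, 0.145 without KO replicate 3, 0.0971 without WT replicate 1 and 0.121 without WT replicate 3.

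Ifngr2 and Il6st ranked the libraries in a similar way (Pearson r = 0.95 between their log2 CPM over the 6 libraries, a description). Ifngr2 and the marker genes of other cell types were both lowest in KO replicates 2 and 3, and of the WT libraries lowest in replicate 2. Il6st, too, was lowest in replicate 2 among the WT libraries. There the marker sum was 7861 CPM, against 15232 and 13937 CPM in the other WT libraries, and Il6st was at 90.3 CPM against 96.0 and 92.8. The part of other cells in the levels of Ifngr2 and Il6st was not tested.

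**Figure D2:**
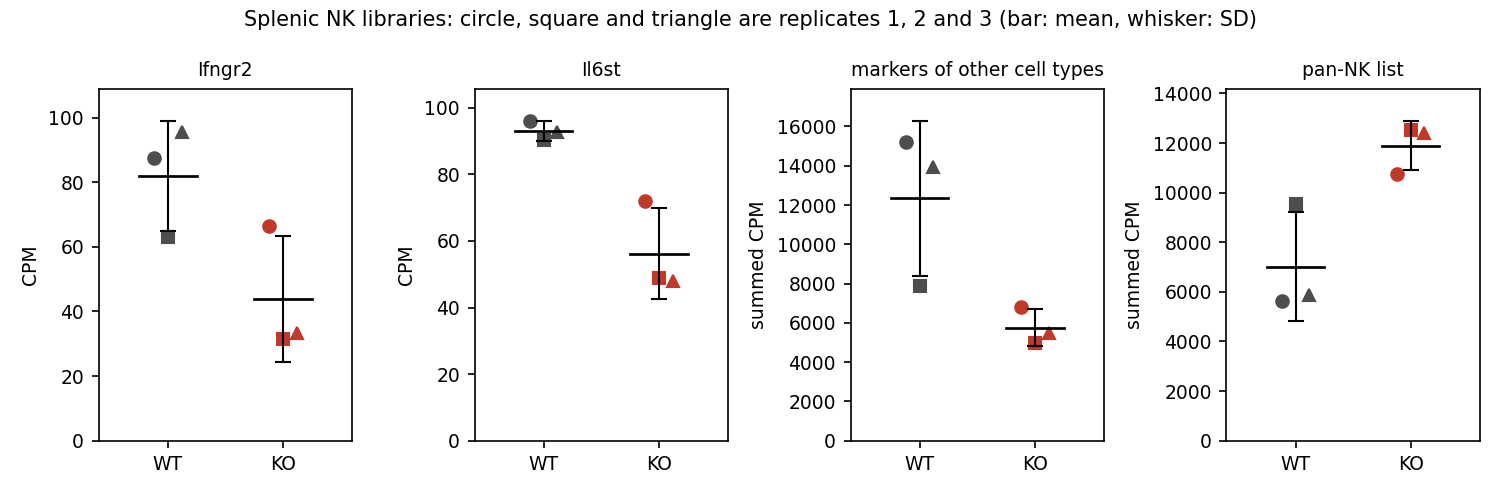
Levels of Ifngr2 and Il6st (CPM) beside the summed CPM of the markers of other cell types and of the pan-NK list in the same libraries, on linear axes from 0. Symbols are replicates 1 (circle), 2 (square) and 3 (triangle), bars are means and whiskers are SD (n = 3). WT replicate 2 is the lowest WT library for the markers (7861 CPM) and for Ifngr2 (63.0 CPM), and KO replicate 1 is the highest KO library for the markers (6808 CPM), Ifngr2 (66.3 CPM) and Il6st (71.8 CPM).

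The directions of Ifngr1 and Ifnar1 depended on the scaling. Scaled to the pan-NK list in place of TMM, the median log2 fold change of all genes moved from 0.01 to −0.82 and the 5 receptor genes were called lower, as were 66.9% of all genes, between −0.72 (Ifngr1) and −1.76 (Ifngr2). With TMM, all 12 genes of that list were themselves higher in KO libraries, 7 of them called. Scaling to them treats that rise as no change. Relative to the median gene, the values under that scaling were 0.10 for Ifngr1, 0.06 for Ifnar1, −0.07 for Ifnar2, −0.93 for Ifngr2 and −0.73 for Il6st, near those with TMM. Of the genes called, 37.4% were higher with TMM and 0.395% with this scaling.

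Levels of different genes were compared per kb of exon. In WT NK cells Ifngr1 stood highest at 158 ± 16.3 CPM per kb, followed by Ifnar2 at 40.3 ± 2.91, Ifnar1 at 23.1 ± 1.003, Ifngr2 at 21.8 ± 4.51 and Il6st at 8.38 ± 0.261 (SD, n = 3 each). By this length, Ifnar1 and Ifngr2 overlapped between libraries and could not be ranked. With the length of the longest transcript, Ifnar1 stood at 35.2 CPM per kb in WT. The length of Ifngr2 hardly differs between the measures (3767 and 3708 bases), so the overlap holds for exon length only. In KO NK cells Ifngr2 was at 17.6, 8.39 and 8.88 CPM per kb and Il6st at 6.47, 4.40 and 4.32, so Il6st was the lowest of the 5 in each library.

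The genes for Ifnar2, Il10rb, Ifnar1 and Ifngr2 lie side by side on chromosome 16. Il10rb, the shared second chain of the IL-10 and lambda interferon receptors, had a log2 fold change of 0.20 (adjusted p = 0.137 by edgeR). Among the tested genes within 200 kb of a receptor gene, Itsn1, 163658 bases from Ifngr2, was called lower (log2 fold change −0.72, adjusted p = 0.0421 by edgeR). The genes between the receptor cluster and Itsn1 were not called. Their log2 fold changes were −0.35 for Tmem50b (adjusted p = 0.201 by edgeR), −0.74 for Dnajc28 (0.0609) and −0.41 for Gart (0.0577). Son had 0.09 (adjusted p = 0.581), Donson 0.21 (0.222), Atp5o −0.07 (0.696) and Cryzl1 −0.13 (0.395). Near Il6st, Ankrd55 had −1.16 (adjusted p = 0.0695 by edgeR), with all KO libraries below all WT libraries. Il31ra (−0.34, adjusted p = 0.250) and Slc38a9 (−0.10, 0.479) overlapped. Near Ifngr1, Il22ra2 had −1.62 (adjusted p = 0.207) and Il20ra 0.08 (0.916).

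The genes whose log2 CPM followed each receptor gene most closely over the 6 mouse libraries were named as a description of the libraries. They were Gfpt2, Ubxn7 and Agtpbp1 for Ifngr1 (r = 0.969 to 0.979), Gm6377, Ngfr and Bcl2l14 for Ifngr2 (r = 0.997 to 0.999), Dlg1, Gabpa and Tm9sf4 for Ifnar1 (r = 0.994 to 0.997), RP23-316L10.2, U2surp and Mcm5 for Ifnar2 (r = 0.961 to 0.993) and Rps19, St8sia6 and Cxx1c for Il6st (r = 0.995 to 0.998).

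Around the receptors, 16 of 85 tested genes of the mouse pathway were called, 10 higher and 6 lower, beside 11.9% of all genes (4.44% higher and 7.43% lower). Their median log2 fold change was −0.05, beside 0.01 over all genes. Of the 7 ligands, Ifng, which codes for interferon gamma, rose from 19.2 ± 5.41 to 40.2 ± 2.45 CPM (SD, n = 3 each), a log2 fold change of 1.07 (adjusted p = 0.0279 by edgeR). Clcf1, a gp130 cytokine, rose (log2 fold change 0.57), and Ebi3, a subunit of IL-27, fell (−0.83). Of 10 partner and related chains, 1 rose and 2 fell by edgeR, and 3 rose and 3 fell by DESeq2. Il27ra, which pairs with gp130 for IL-27, rose from 88.2 to 137 CPM (log2 fold change 0.64, adjusted p = 0.0279). Il6ra, which pairs with it for IL-6, fell from 88.5 to 52.8 CPM (−0.75, adjusted p = 0.0457), and Lifr, the LIF receptor, fell from 21.5 to 10.3 CPM (−1.06, adjusted p = 0.0481). The partner chains of gp130 thus changed in both directions.

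Of the 4 JAK kinases, Jak3, which serves the common gamma chain receptors of IL-2 and IL-15, was called, with 344 CPM in KO against 209 CPM in WT (log2 fold change 0.72, adjusted p = 0.0279 by edgeR). The kinases of the receptors described here were not called by edgeR. Their log2 fold changes were 0.46 for Jak1 (adjusted p = 0.149), −0.31 for Jak2 (adjusted p = 0.0510) and 0.46 for Tyk2 (adjusted p = 0.0522). DESeq2 called Jak2 lower (adjusted p = 0.00888) and Tyk2 higher (adjusted p = 0.00752). None of the 6 listed STAT factors, nor Irf9, was called by edgeR, and DESeq2 called Stat4 alone (higher). At an unadjusted p under 0.05, 1 of them was higher and 1 lower, beside 2080 higher and 2639 lower of all 13189 genes. Stat3 stood at 350 CPM in WT and 360 CPM in KO, and Stat2 at 132 and 108 CPM. Irf9, which joins STAT dimers in type I interferon signalling, had a log2 fold change of −0.16.

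Of 14 inhibitors, 3 rose and none fell by edgeR, beside 4.44% of all genes called higher and 7.43% lower. At an unadjusted p under 0.05, 4 were higher and 2 lower, beside 2080 and 2639 of all 13189 genes. The same 2 were called lower by DESeq2. Cish went from 13.8 to 28.6 CPM (log2 fold change 1.05), Socs1, which blocks JAKs below the interferon receptors, from 26.3 to 50.9 CPM (0.95), and Pias3, an inhibitor of STAT3, from 62.4 to 89.9 CPM (0.53). Of 33 interferon-induced targets, 3 rose and 2 fell by edgeR. By DESeq2, which called 23.4% of all genes and 15.1% lower, 3 rose and 9 fell. Their median log2 fold change was −0.17 by edgeR. Nlrc5, a regulator of MHC class I genes (0.58), Gbp4, a guanylate-binding protein (0.54), and Irf1, a transcription factor induced by interferons (0.53), rose. Ciita, the master regulator of MHC class II genes, fell from 265 to 123 CPM (−1.10), and Ifih1, which codes for the RNA sensor MDA5, from 53.6 to 34.9 CPM (−0.62). Of 10 STAT3 targets, Hif1a alone was called by edgeR and fell (−0.37). Ciita, Il6ra, Lifr and Ebi3 were lower in the same libraries as the markers of other cell types, and the part of those cells was not tested. Scaled to the pan-NK list, which moved the median of all genes to −0.82, 7 of the 10 genes that rose had log2 fold changes below 0, but relative to that median all 10 stayed positive (0.54 to 1.13). The count of 16 depended on single libraries. It was 38 without WT replicate 2, 24 without KO replicate 1, 1 without WT replicate 1, and 0 without KO replicate 2, KO replicate 3 or WT replicate 3. The calls over all genes moved likewise, to 3530, 2032, 99, 0, 0 and 14 in the same order.

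The second comparison asked whether an EHMT2 inhibitor altered the same chains in human NK cells. In NK92MI, 3 of the 4 genes rose with BIX, and none fell. IFNGR1 reached 1.46, IFNAR1 1.67 and IL6ST 1.66 times the DMSO level, each with no overlap between groups. IFNAR2 had 19 reads or fewer in each library and was not called. By edgeR, 18.4% of all human genes were called higher and 18.4% lower (35.1% in all by DESeq2). Groups did not overlap for 47.9% of the genes, and 24.1% had every BIX library above every DMSO library. Under the thresholds of the study (adjusted p under 0.01 and an absolute log2 fold change over 0.5), which 11.7% of human genes passed, the same 3 genes were called by edgeR and by DESeq2. EHMT2 itself was at 57.7 ± 3.66 CPM with DMSO and 38.5 ± 2.39 CPM with BIX (SD, n = 3 each).

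The 3 genes that rose together are shown with the bases just before their outermost annotated start, from the RefSeq promoter set on GRCh38.p14, 5′ to 3′ on the strand of the gene. Capitals mark GC boxes (GGGCGG) and CCAAT boxes (CCAAT) on either strand, which a search found.
IFNGR1, chr6:137219450-137219635, minus strand: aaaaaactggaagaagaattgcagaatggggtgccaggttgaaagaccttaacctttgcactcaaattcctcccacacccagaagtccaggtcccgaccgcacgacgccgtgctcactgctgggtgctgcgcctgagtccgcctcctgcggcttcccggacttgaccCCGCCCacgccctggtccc
IFNAR1, chr21:33324145-33324386, plus strand: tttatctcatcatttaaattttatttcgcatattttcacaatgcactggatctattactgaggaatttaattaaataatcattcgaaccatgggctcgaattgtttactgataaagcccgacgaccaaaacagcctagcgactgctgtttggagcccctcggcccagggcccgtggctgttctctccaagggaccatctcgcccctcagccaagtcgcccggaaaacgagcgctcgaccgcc
IL6ST, chr5:55995023-55995213, minus strand: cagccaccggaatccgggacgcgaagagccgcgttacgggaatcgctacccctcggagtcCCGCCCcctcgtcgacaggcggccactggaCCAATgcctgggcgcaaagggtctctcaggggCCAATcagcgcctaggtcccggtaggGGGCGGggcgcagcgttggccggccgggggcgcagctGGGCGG
The stretch of IFNGR1 held 1 GC box, that of IL6ST 3 GC boxes and 2 CCAAT boxes, and that of IFNAR1 neither. The interferon gamma-activated site (TTCNNNGAA) and the interferon-stimulated response element (GAAA, any 2 bases, GAAA) were found in none of the 3 stretches, nor in the 300 bases around the start. Among 34796 RefSeq promoters of 300 bases, 44.89% held a GC box, 34.62% a CCAAT box, 7.67% the first and 3.57% the second interferon element on either strand. A match is a description of the letters and not a site of binding.

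**Figure D3:**
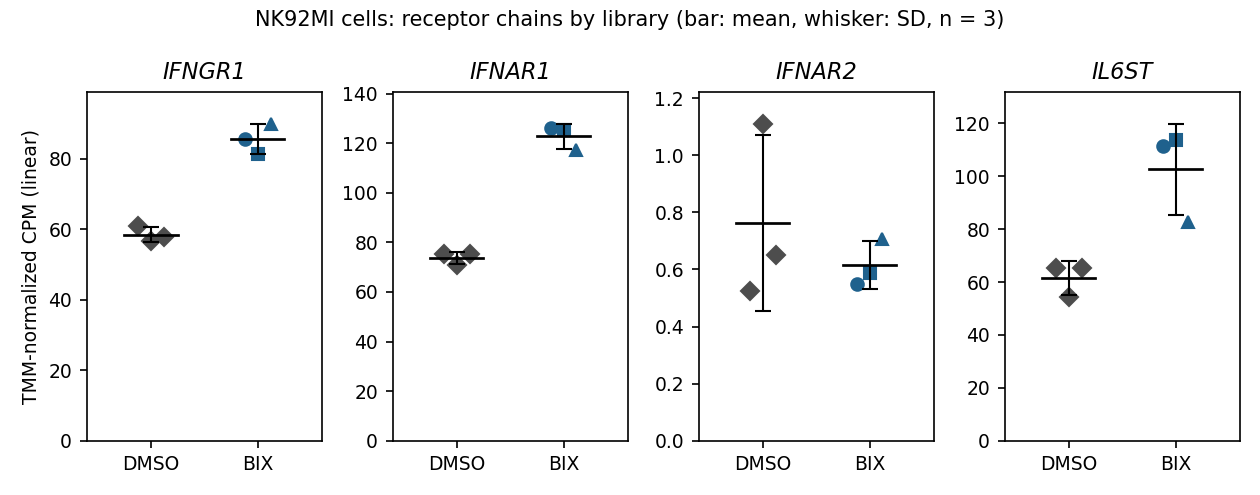
TMM-normalized CPM of the 4 human genes (vertical axes, linear, from 0) in NK92MI cells with DMSO (diamonds, libraries without replicate numbers) or BIX (replicates 1, 2 and 3 as circle, square and triangle). Bars are means and whiskers are SD (n = 3). IFNGR1, IFNAR1 and IL6ST separate the groups, and IFNAR2 stays at or below 1.11 CPM in all libraries.

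IFNGR1, on chromosome 6 of GRCh38 (chr6:137197483-137219449, minus strand), was at 60.9, 56.7 and 57.8 CPM with DMSO and at 85.5, 81.2 and 89.9 CPM with BIX. The lowest BIX library lay well above the highest DMSO library. The log2 fold change was 0.55 (SE 0.07, adjusted p = 4.80e-05 by edgeR), and it stayed between 0.52 and 0.59 with each library left out in turn. Its partner chain was not analysed here, so the make-up of the human interferon gamma receptor could not be followed.

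IFNAR1 (chr21:33324387-33359864, plus strand) was at 75.2, 71.0 and 75.1 CPM with DMSO and at 126, 126 and 117 CPM with BIX. All BIX libraries lay above all DMSO libraries, and the log2 fold change was 0.74 (SE 0.07, adjusted p = 2.04e-06 by edgeR). Left out in turn, single libraries moved it between 0.71 and 0.77. IFNAR2 (chr21:33205282-33265675, plus strand) had raw counts of 9, 19 and 11 with DMSO and 9, 10 and 12 with BIX. This is 0.762 ± 0.309 CPM and 0.615 ± 0.0836 CPM (SD, n = 3 each), where the high DMSO value comes from 1 library. The log2 fold change of −0.31 had an interval from −1.20 to 0.59 (95%, adjusted p = 0.605 by edgeR), so a difference was not detectable at this depth, and without that library the value was 0.07. In the annotation, IFNAR2 shares 14.7% of its exon bases with the readthrough gene IFNAR2-IL10RB on the same strand and 13.0% with IL10RB-DT on the other. How the counting treated reads that fall on both genes is not stated, which bears on this level.

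IL6ST (chr5:55935095-55995022, minus strand) was at 65.5, 54.3 and 65.3 CPM with DMSO and at 111, 114 and 82.7 CPM with BIX. BIX replicate 3 was the lowest of its group and still above every DMSO library. The log2 fold change was 0.73 (SE 0.11, adjusted p = 0.000199 by edgeR), between 0.65 and 0.87 with each library left out in turn. The annotation places antisense transcripts on 6.61% of the exon bases of IL6ST and on 2.50% of those of IFNAR1. Without a stated strand setting, their reads cannot be told apart from those of the receptor genes.

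Per kb of exon, IFNGR1 was the highest of the 4 in DMSO cells at 16.5 ± 0.615 CPM per kb, followed by IL6ST at 5.11 ± 0.532, IFNAR1 at 4.71 ± 0.153 and IFNAR2 at 0.0549 ± 0.0223 (SD, n = 3 each). IL6ST and IFNAR1 overlapped between libraries. With the length of the longest transcript in place of all exons, IFNAR1 (11.96 CPM per kb) stood above IL6ST (6.83 CPM per kb). The level of IFNAR2 carries the limit given above, since the treatment of reads on exons shared with other genes is not stated.

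**Figure D4:**
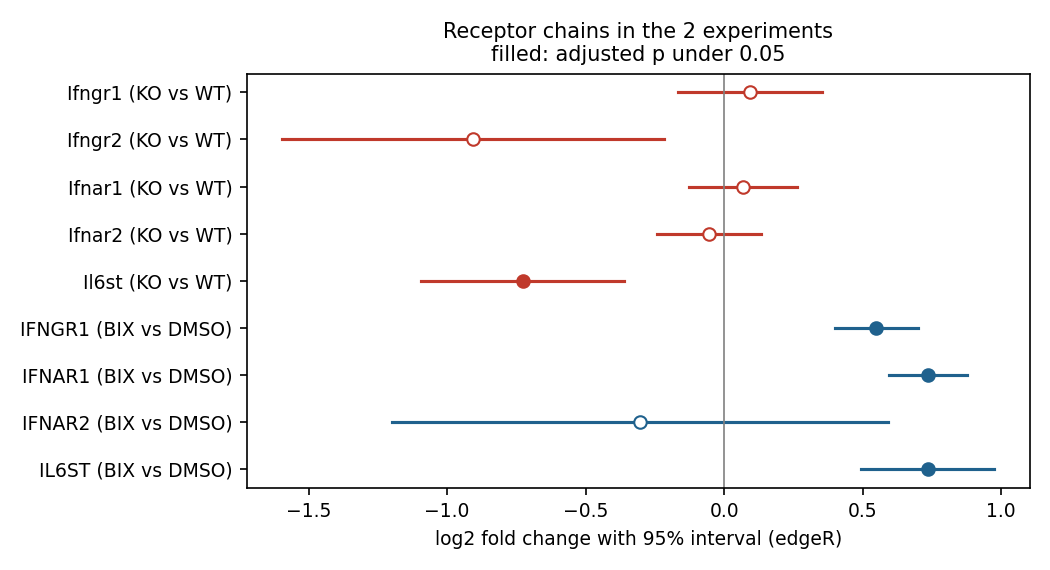
Log2 fold changes by edgeR (horizontal axis) with 95% intervals for the 5 mouse genes (KO against WT, red) and the 4 human genes (BIX against DMSO, blue). Filled circles have an adjusted p under 0.05. Il6st is lower in KO cells (−0.73), a call that did not hold with every library left out, and IL6ST higher with BIX (0.73).

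Set side by side, the gp130 gene differed in direction between the experiments, with log2 fold changes of −0.73 in KO and 0.73 in BIX-treated cells. Ifngr1 and Ifnar1 had log2 fold changes of 0.09 and 0.07 in KO cells and their human counterparts 0.55 and 0.74 with BIX. The tables are of different species and cells and were fitted separately, and no test was made between them.

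Close to IL6ST, DDX4, a germ-line helicase gene 117938 bases away, rose from 4.65 to 11.9 CPM (log2 fold change 1.35, adjusted p = 2.30e-05 by edgeR), and SLC38A9, an amino acid transporter gene, rose (0.41, adjusted p = 0.000666). On chromosome 21, IL10RB, between IFNAR2 and IFNAR1, fell (log2 fold change −1.06, adjusted p = 0.0438 by edgeR, 0.0854 by DESeq2) on 64 counts in all with DMSO and 30 with BIX. As for IFNAR2, how reads on the readthrough gene IFNAR2-IL10RB were counted is not stated. SON fell slightly (−0.19, adjusted p = 0.0394). The neighbours of IFNAR1 thus included no tested gene that was called higher, DONSON having a log2 fold change of 0.17 (adjusted p = 0.0504). TMEM50B (−0.14, adjusted p = 0.353 by edgeR) and GART (−0.03, 0.714) were not called.

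Over the 6 human libraries the genes closest to each receptor gene in log2 CPM were CDC6, PIM2 and ISOC1 for IFNGR1, IRF4, CDH17 and RYBP for IFNAR1 and EAF1, TMOD3 and PAG1 for IL6ST, with r between 0.996 and 0.9995. For IFNAR2 they were GOLPH3-DT, AKT1S1 and CLK3 (r = 0.983 to 0.985), at counts where such a likeness carries little. These correlations describe libraries that fall into 2 groups.

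Of 77 tested genes of the human pathway, 43 were called, 28 higher and 15 lower, beside 36.9% of all genes. Their median log2 fold change was 0.10, against −0.01 over all genes. Of 6 ligands, 2 rose and 1 fell. IFNG rose from 31.5 ± 3.33 to 206 ± 48.7 CPM (SD, n = 3 each), a log2 fold change of 2.71 (adjusted p = 1.90e-08 by edgeR). EBI3 had no count in the DMSO libraries and 13, 10 and 21 with BIX, at least 14.9-fold higher against a floor of 3 counts over the group. OSM, the gene of oncostatin M, a gp130 cytokine, fell (−0.34). Of 6 partner and related chains, 3 rose and 2 fell. IL27RA rose from 69.6 to 91.2 CPM (log2 fold change 0.39), IL10RA from 102 to 134 CPM (0.39) and IL11RA from 4.12 to 5.76 CPM (0.48, adjusted p = 0.0396 by edgeR, not called by DESeq2 at 0.0662). IL12RB2, a chain of the IL-12 receptor, fell (−0.23). IL10RB fell by edgeR on the low counts given above, and DESeq2 did not call it.

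Among the JAK kinases JAK1 fell from 391.5 to 324 CPM (log2 fold change −0.27, adjusted p = 0.00315 by edgeR). JAK2 (0.16, adjusted p = 0.185) and TYK2 (0.05, adjusted p = 0.547) were not called. STAT3 rose from 205 to 266 CPM (log2 fold change 0.37, adjusted p = 0.000427). STAT5B, which serves IL-2, fell from 190 to 129 CPM (−0.57), and STAT6 fell (−0.25). STAT2 (0.10) and IRF9 (0.17), which act together in type I interferon signalling, were not called. Of 12 inhibitors, PIAS1 rose (0.39), and the phosphatase gene PTPN11 (−0.35), PIAS3 (−0.37) and CISH (−0.25) fell.

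Of 32 interferon-induced targets in NK92MI, 14 rose and 6 fell, beside 18.4% of all genes called in each direction. Their median log2 fold change was 0.14, against −0.01 over all genes. RSAD2, which codes for the antiviral protein viperin, rose from 69.1 to 166 CPM (1.27), GBP4 from 240 to 402 CPM (0.74) and TAP1, a peptide transporter for MHC class I, from 127 to 197 CPM (0.64). IRF8 (−0.57), NLRC5 (−0.45) and OASL (−0.39) fell. Of 10 STAT3 targets, 7 rose and none fell by edgeR, beside 18.4% of all genes in each direction, with a median of 0.43. At an unadjusted p under 0.05, 8 were higher and 0 lower, beside 2910 higher and 2951 lower of all 12727 genes. MCL1, a survival gene, went from 532 to 997 CPM (0.91), JUNB from 35.9 to 91.8 CPM (1.35) and BCL6 from 26.7 to 48.3 CPM (0.86). At the thresholds of the study 13 pathway genes passed, 11 higher and 2 lower, beside 11.7% of all genes.

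**Figure D5:**
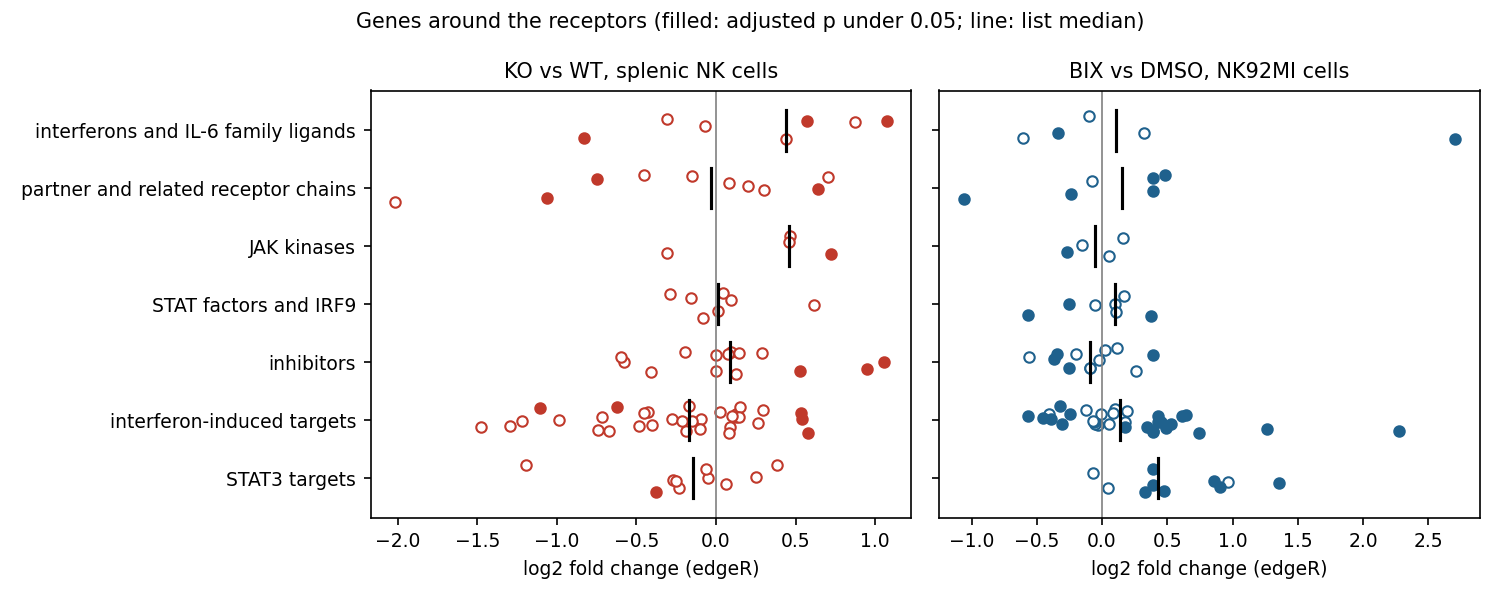
Log2 fold changes by edgeR (horizontal axes) of the pathway genes by role (rows) in KO against WT mouse NK cells (left, red) and BIX against DMSO in NK92MI (right, blue). Each circle is a gene, filled where the adjusted p is under 0.05, and black lines are list medians. EBI3, with no DMSO count, is in the median but not drawn. In NK92MI, 7 of 10 STAT3 targets are filled and to the right of 0, and in mouse 1 of 10 is filled, to the left. Over all genes, 18.4% were called higher in NK92MI and 7.43% lower in mouse.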

How the data were processed

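RNA-seq counts of 3 WT and 3 KO splenic NK libraries and of NK92MI cells with BIX-01294 or DMSO, 3 libraries each, were used. The authors trimmed reads with fastp 0.23.4, aligned them with STAR 2.7.11b (mouse reads on GRCm38/mm10, human reads on GRCh38/hg38) and made counts with HTSeq 2.0.3, and the deposited values are raw counts per gene symbol. The annotation release and strand setting are not given in the sources used here. The human control columns could not be tied to single DMSO samples and served as an unnumbered group.

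Each species was fitted separately in R 4.3.3 with edgeR 4.0.16 (TMM, filterByExpr, quasi-likelihood test, Benjamini-Hochberg adjustment over all genes, call at an adjusted p under 0.05). Two-sided tests were used throughout. The biological coefficient of variation was 18.2% in mouse and 7.55% in human. With totals of 16579469 or more, counting error is small except for the lowest genes, and intervals and the floor of 3 counts cover it or the library spread only. No pair of libraries of a group matched within sampling noise (chi-square per degree of freedom 2.81 or more). Positions, exon lengths and overlaps are from GENCODE annotations of the same builds, which may differ from the authors'. Sequences are from RefSeq.

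Named were all receptor genes and JAK1, JAK2, TYK2, STAT2, STAT3, IRF9 and IFNG. Up to 3 called genes per list and direction were added by smallest adjusted p. So were the 3 genes most correlated with each receptor gene (log2 CPM, prior count 2) and the tested genes within 200 kb. The receptor genes, lists and thresholds were chosen with earlier results of these data known. Alternatives were DESeq2 1.42.0, limma-voom (limma 3.58.1), other scalings and filters, the study's thresholds, the replicate number as a block, single libraries left out and, added after seeing the data, DESeq2 with the study's thresholds. The procedure was tested on simulated data. A gene of the STAT list is not reported here, and H3K9me2 data were not analysed here.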

Additional observations from a re-analysis of the deposited data

How the results depend on the processing

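The calls of IFNGR1, IFNAR1 and IL6ST held under every alternative run. IFNAR2 had no value under a mean CPM of at least 1, and the log2 fold change of IFNAR2 ran from −0.52 to 0.066 with libraries left out. In mouse, 1 of 5 receptor genes and 16 pathway genes were called, beside 11.9% of all genes. DESeq2, which called 23.4% of all mouse genes, called 2 and 33. The study's thresholds with edgeR gave 0 and 0, as of all 13189 mouse genes, where the smallest adjusted p was 0.0116. DESeq2 with those thresholds, an alternative added after seeing the data, called 2 receptor genes, beside 11.3% of all genes. At an unadjusted p under 0.05, edgeR gave 2 receptor genes, and over all 13189 mouse genes 2080 higher and 2639 lower. With libraries left out the counts ranged from 0 to 2 receptor genes and from 0 to 38 pathway genes. For human pathway genes, the study's thresholds gave 13 by edgeR and 13 by DESeq2 in place of 43, and libraries left out 34 to 43. Those thresholds were passed by 11.7% of all human genes with either method.

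The replicate number as a block gave 2 receptor genes (Ifngr2, adjusted p = 0.0175, and Il6st, 0.00873, by edgeR) and 35 pathway genes. It called 24.4% of all mouse genes, against 11.9% without the block. Deviations of same-numbered WT and KO libraries correlated at 0.28, 0.35 and −0.19. With 3 libraries per group, these values cannot decide whether the numbers pair the libraries. Not every library correlated best with its own number. No paired analysis was possible because the control columns carry no numbers in the human table.

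Scaling to the pan-NK list called 5 receptor genes and 61 pathway genes, all lower, as were 66.9% of all genes, whose median moved to −0.82, and turned the log2 fold changes of Ifngr1 (−0.72), Ifnar1 (−0.77), Jak1 (−0.32), Tyk2 (−0.36), Stat3 (−0.81), Clcf1 (−0.22), Il27ra (−0.19), Jak3 (−0.13), Pias3 (−0.29), Irf1 (−0.28), Gbp4 (−0.26) and Nlrc5 (−0.26). The genes of the pan-NK list were themselves higher in KO libraries with TMM. With libraries left out, the log2 fold change of IRF9 ran from −0.045 to 0.29, and it was not called. With the longest transcript as length, WT levels were 213 (Ifngr1), 35.2 (Ifnar1), 44.04 (Ifnar2) and 10.7 (Il6st) CPM per kb, and DMSO levels 23.2 (IFNGR1), 11.96 (IFNAR1), 0.0843 (IFNAR2) and 6.83 (IL6ST). The cause of these changes was not tested. Raw counts of 25 or fewer in each library limit IFNAR2 and IL10RB.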
